A study of Mus musculus with 2 samples.

Results

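Chromatin accessibility was examined at 10 endothelial and blood-brain barrier genes, Cldn5, Pecam1, Slc2a1, Mfsd2a, Flt1, Tek, Kdr, Cdh5, Abcb1a and Sox17. They were chosen by name, by their symbols in the GENCODE M21 gene annotation of the mouse mm10 assembly, and are 10 of 21938 protein-coding genes outside the mitochondrial chromosome. The tissue, from the left cerebral cortex, came from males of strain B6CASTF1/J, a cross of C57BL/6 and CAST/EiJ, aged 8 to 10 months. DNase-seq, which maps DNA that is open to cutting by the enzyme DNase I, was run on 2 libraries labelled biological replicates 1 and 2. Both libraries form 1 untreated group, so there is no contrast and no test, and values are given for each library and as mean ± SD (n = 2). In the labels the biosample identifiers of the libraries differ and the donor identifier is shared, so the SD may leave out variation between animals.

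Endothelial cells line the vessels of the brain and form the blood-brain barrier, a wall that restricts what passes from blood to neural tissue. The barrier rests on tight junctions between the cells, on low traffic of vesicles through them, and on transporters that carry nutrients in and foreign compounds out. Growth factor receptors for VEGF and angiopoietin keep the vessels growing or quiescent, and SOX and ETS family transcription factors maintain endothelial identity. These cells are a minority of cortical cells, so whole tissue carries their open chromatin mixed with that of neurons and glia. In such bulk samples, fewer cells of a type and less accessibility per cell cannot be told apart.

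For each library the authors deposited a stricter peak list (40705 peaks in replicate 1 and 39508 in replicate 2), a broader list (71210 and 72217 peaks) and footprints (166128 and 174394), which are short stretches protected within open DNA. Each peak carries a deposited signal value, called its strength here, whose normalization is not given in the sources used here. The median strength of the stricter peaks was 1.22 in replicate 1 and 1.15 in replicate 2, and read depth is unknown. A promoter peak is one that overlaps the 1 kb on either side of any annotated start of the gene, and a window is the gene with 50 kb on each side.

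A stricter promoter peak was present in both libraries at 4 of the 10 genes, Slc2a1, Mfsd2a, Abcb1a and Sox17, against 54.9% of all protein-coding genes. The broader list added Kdr, giving 5 of 10 against 60.8%. At 5 genes, Cldn5, Pecam1, Flt1, Tek and Cdh5, neither library had a stricter promoter peak, against 40.9% of all genes. Footprints within 1 kb of a start were listed in both libraries for the same 4 genes that carried the stricter promoter peak, against 59% of all genes. By role, all 3 transporters had a stricter promoter peak in both libraries, and the junction and adhesion genes had no promoter peak in either list. Of the receptors, Kdr had one in both libraries in the broader list, and it was stronger than that of the transporter gene Abcb1a in each library.

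**Figure D1:**
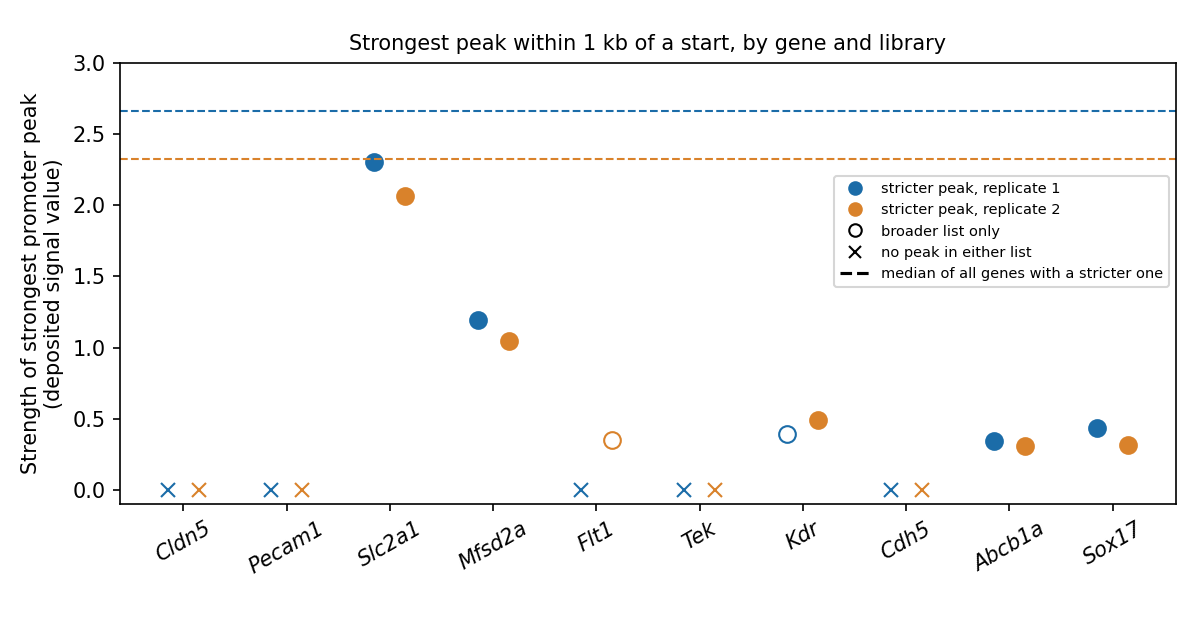
Strength of the strongest peak within 1 kb of a start (vertical axis, deposited signal value) for each gene (horizontal axis), with replicate 1 in blue and replicate 2 in orange. Filled points are stricter peaks, open points were in the broader list only, crosses at 0 mark genes with no promoter peak in either list, and dashed lines are the medians over all genes with a stricter promoter peak (2.66 and 2.32). Slc2a1 lies nearest to those medians, Mfsd2a lies between 1.05 and 1.19, and every other promoter peak lies below 0.5.

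Among the transporters, Slc2a1 encodes the glucose transporter GLUT1, which supplies the brain with glucose (chr4:119108711-119137983, plus strand, 5 annotated starts). Its strongest promoter peak had a strength of 2.30 in replicate 1 and 2.06 in replicate 2 (2.18 ± 0.169). That was stronger than 41.6% and 42.2% of the genes that had a stricter promoter peak, whose median was 2.66 in replicate 1 and 2.32 in replicate 2. It was the strongest promoter peak of the 10 genes in each library and the only one above the median strength of all stricter peaks in both libraries. Slc2a1 is not an endothelial marker alone, since astrocytes and other cells also express it.

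Mfsd2a encodes the lipid transporter that carries docosahexaenoic acid into the brain and holds down vesicle traffic in brain endothelium (chr4:122946850-122961188, minus strand, 3 starts). Its promoter peak had a strength of 1.19 in replicate 1 and 1.05 in replicate 2 (1.12 ± 0.105), stronger than 14.3% and 11.9% of the genes with one. That peak also lies within 1 kb of a start of 4933421A08Rik, so it cannot be assigned to Mfsd2a alone.

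Abcb1a encodes P-glycoprotein, the efflux pump that returns drugs to the blood (chr5:8660077-8748575, plus strand, 4 starts). Its promoter peak, in the gene's first intron 234 bp from the start, had a strength of 0.341 in replicate 1 and 0.306 in replicate 2 (0.323 ± 0.0252). Only 0.0721% and 0.0959% of the genes with a stricter promoter peak had a weaker one. Its neighbour Abcb1b, a second P-glycoprotein gene, had a promoter peak of 0.749 and 0.694 (0.722 ± 0.0384). It was stronger than that of Abcb1a in each library (Abcb1b was named after its values were seen). That peak also lies within 1 kb of a start of Gm5106, so it cannot be assigned to Abcb1b alone.

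The upstream parts of both stronger transporter promoters are shown because they had the strongest promoter peaks of the 10 genes. Abcb1a and Sox17 also had footprints within 1 kb of a start in both libraries. Sequences are the mm10 reference (GRCm38.p6), 5′ to 3′, and capitals mark footprints of replicate 1. Slc2a1 is chr4:119108521-119108700 on the plus strand, and Mfsd2a is chr4:122961199-122961360 printed on the gene's minus strand; the 10 bases next to each start were left out.
Slc2a1 promoter: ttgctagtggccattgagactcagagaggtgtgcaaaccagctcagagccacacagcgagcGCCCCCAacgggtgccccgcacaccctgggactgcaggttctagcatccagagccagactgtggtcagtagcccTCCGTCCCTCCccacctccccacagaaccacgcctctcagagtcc
Mfsd2a promoter: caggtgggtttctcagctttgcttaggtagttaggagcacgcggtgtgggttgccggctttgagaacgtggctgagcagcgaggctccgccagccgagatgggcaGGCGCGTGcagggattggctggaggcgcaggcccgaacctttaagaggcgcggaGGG
Each stretch overlapped 2 footprints in replicate 1, and in replicate 2 the Slc2a1 stretch overlapped 2 and the Mfsd2a stretch overlapped 1. Capitals at the very end of a stretch, as at Mfsd2a, may be part of a footprint that runs on into the bases left out. None of the motifs searched below was found in either stretch.

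Sox17, a transcription factor of arterial and barrier endothelium (chr1:4490931-4497354, minus strand, 8 starts), had 1 stricter promoter peak in each library, but at different places. The peak of replicate 1 (chr1:4496750-4496881) had a strength of 0.436 and that of replicate 2 (chr1:4497281-4497321) a strength of 0.315. The peaks do not overlap, although each overlapped a broader peak of the other library. Both also lie within 1 kb of a start of Gm37587, a non-coding transcript on the opposite strand. The value of 0.375 ± 0.0857 therefore joins separate sites of 1 promoter region.

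Kdr and Flt1 encode the receptors VEGFR2 and VEGFR1, the main signalling receptor for VEGF and a decoy that binds it, and Tek encodes TIE2, the angiopoietin receptor. At Kdr (chr5:75932827-75978458, minus strand, 1 start) a stricter promoter peak of 0.491 was listed in replicate 2 and none in replicate 1, where the strongest broader one was 0.389. Only 2.17% of all genes had a stricter promoter peak in replicate 2 alone. That peak (chr5:75978121-75978235, 280 bp into the gene) did not itself overlap a broader peak of replicate 1. The wider broader peak of replicate 2 at the same place (chr5:75978020-75978329, 0.491) did overlap one, so both libraries had a broader peak there. At Flt1 (chr5:147561604-147726011, minus strand, 5 starts) the one promoter peak was a broader peak of 0.352 in replicate 2, near the start of a non-coding transcript inside the gene. At Tek (chr4:94739289-94874976, plus strand, 4 starts) there was none.

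The junction and adhesion genes had no promoter peak in either list of either library. Cldn5 encodes claudin-5, the main tight junction protein of brain endothelium (chr16:18776847-18778262, plus strand, 1 start). Cdh5 encodes VE-cadherin of the adherens junction (chr8:104101625-104144511, plus strand, 2 starts). Pecam1 encodes the adhesion molecule CD31 (chr11:106654217-106750628, minus strand, 8 starts).

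The deposited table of FDR values, which lists short intervals with a false discovery rate under 0.05, gave a finer reading of the same promoters. No interval was listed within 1 kb of any start of Cldn5, Pecam1, Tek or Cdh5 in either library, whereas 63.2% of all genes in replicate 1 and 63.9% in replicate 2 had one. Flt1 had none in replicate 1 and 88 in replicate 2, the lowest at 0.00287. Kdr had 94 with a lowest value of 0.0131 in replicate 1, and 128 with a lowest value of 0.000156 in replicate 2. Slc2a1 stood at the other end, with 704 intervals reaching 9.61e-16 and 632 reaching 5.13e-12. The lowest values at Abcb1a were 0.000271 and 0.000445 and at Sox17 0.000121 and 6.67e-05. In replicate 1 both genes lay between Slc2a1 and Kdr. In replicate 2 Sox17 did so too, while the lowest value at Kdr (0.000156) was below that at Abcb1a.

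Base composition, which the choice of genes did not use, was set beside these calls. A promoter was counted as CpG rich when its 300 bp (250 before and 50 after the outermost start) had an observed over expected CpG ratio above 0.6 and a GC content above 50%. Of the 9004 CpG-rich genes 87.3% had a stricter promoter peak in both libraries, and of the other 12934 genes 32.3% did. Mfsd2a, Flt1, Kdr and Sox17 were CpG rich, and 2 of these 4 had the peak. Flt1 held 29 CpGs in those 300 bp, at a ratio of 0.78 and a GC content of 70.7%, without one. The remaining 6 had ratios from 0.149 at Tek and 0.192 at Cdh5 to 0.481 at Slc2a1, against a median of 0.525 over all genes, and 2 of these 6, Slc2a1 and Abcb1a, had the peak.

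The window held a stricter peak in both libraries for 8 of 10 genes, all but Tek and Kdr, which is close to the 82.4% of all genes. At Sox17 that was its own promoter peak alone, and at Abcb1a the remaining peaks lay at starts of other genes. A stricter peak inside the gene and over 1 kb from every start was present in both libraries at Pecam1, Mfsd2a and Flt1, 3 of 10 against 17.2%. With the broader list these were 5, with Slc2a1 and Cdh5 added, against 27.9%. At Pecam1, Flt1 and Cdh5 the gene body or its edge therefore held called peaks although the promoter held no stricter one. The shares of all genes were not matched for gene length, which was 96.4 kb at Pecam1, 164 kb at Flt1 and 14.3 kb at Mfsd2a.

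**Figure D2:**
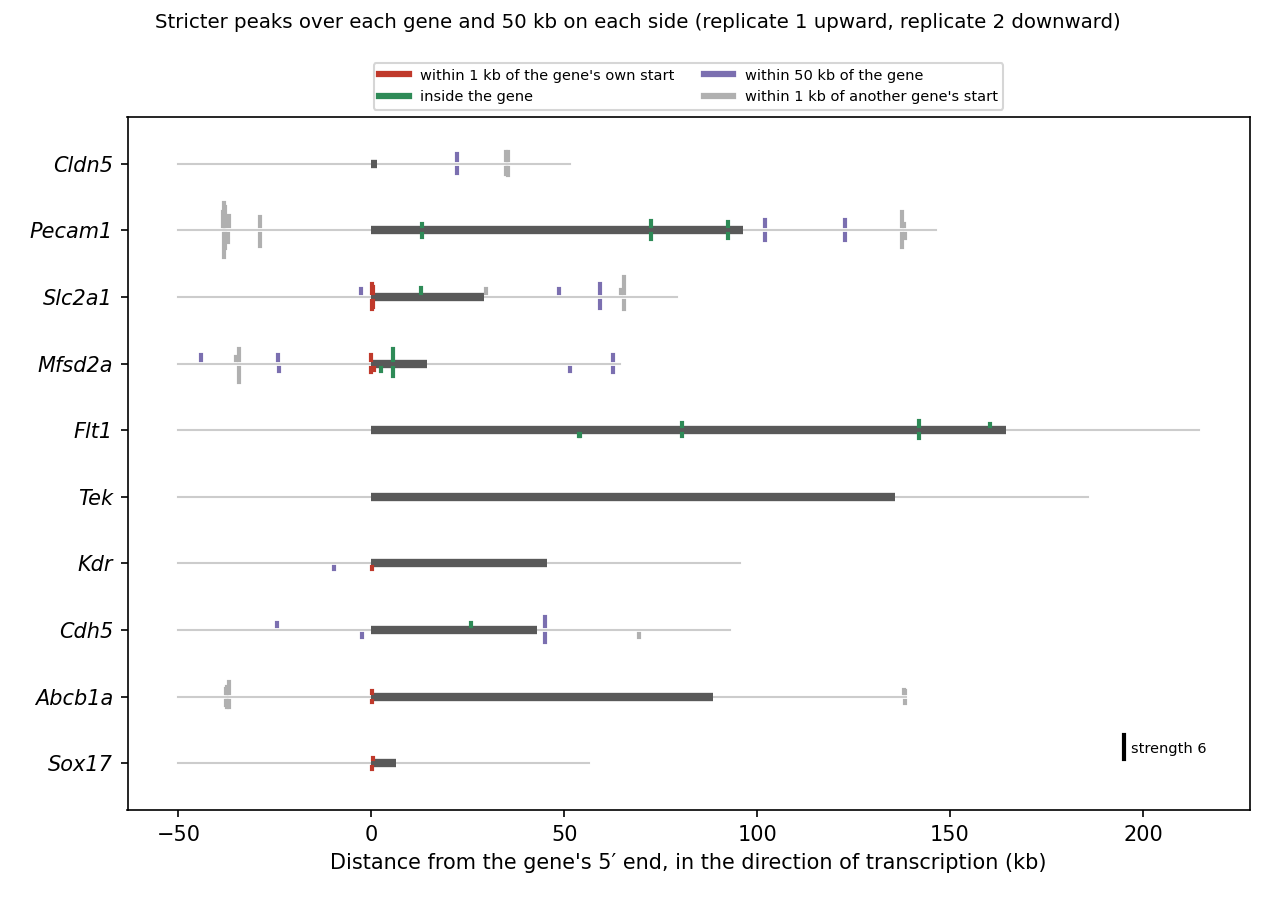
Stricter peaks over each gene and 50 kb on each side, by distance from the gene's 5′ end in kb (horizontal axis), with the gene as a thick bar. Ticks point up for replicate 1 and down for replicate 2, their length is the strength (scale bar 6), and colour gives the position. Tek has no tick, Kdr and Sox17 have only short ones, and the longest ones near Pecam1 lie at the start of another gene.

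The 6 peaks printed next were chosen because each was the strongest stricter peak shared by both libraries in its window that lay outside every gene's start region (at Cldn5, Pecam1, Flt1 and Cdh5 no promoter peak was in the stricter list). They are named by the window they lie in, and no value here assigns them to that gene. They are mm10 reference sequences (GRCm38.p6) on the plus strand with footprints of replicate 1 in capitals. The intervals are chr16:18798931-18799130 for Cldn5, chr11:106648421-106648600 for Pecam1, chr4:119167761-119167940 for Slc2a1, chr4:122955511-122955710 for Mfsd2a, chr5:147584041-147584220 for Flt1 and chr8:104146401-104146600 for Cdh5.
Cldn5: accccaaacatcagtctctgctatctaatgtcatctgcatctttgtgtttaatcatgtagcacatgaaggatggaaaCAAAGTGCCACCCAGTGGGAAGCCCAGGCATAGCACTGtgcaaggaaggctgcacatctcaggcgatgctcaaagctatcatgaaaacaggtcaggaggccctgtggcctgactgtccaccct
Pecam1: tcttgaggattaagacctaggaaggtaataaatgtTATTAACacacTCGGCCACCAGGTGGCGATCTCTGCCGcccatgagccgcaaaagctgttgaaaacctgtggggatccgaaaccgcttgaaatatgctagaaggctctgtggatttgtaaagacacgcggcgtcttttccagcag
Slc2a1: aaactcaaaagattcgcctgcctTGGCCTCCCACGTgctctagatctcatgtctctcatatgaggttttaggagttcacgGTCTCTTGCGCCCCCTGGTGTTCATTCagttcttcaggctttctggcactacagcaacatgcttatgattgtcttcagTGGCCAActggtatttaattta
Mfsd2a: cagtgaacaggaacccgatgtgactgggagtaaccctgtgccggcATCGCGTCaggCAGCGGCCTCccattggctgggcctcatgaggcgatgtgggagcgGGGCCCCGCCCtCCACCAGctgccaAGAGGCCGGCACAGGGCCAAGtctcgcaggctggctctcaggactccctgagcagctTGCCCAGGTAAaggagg
Flt1: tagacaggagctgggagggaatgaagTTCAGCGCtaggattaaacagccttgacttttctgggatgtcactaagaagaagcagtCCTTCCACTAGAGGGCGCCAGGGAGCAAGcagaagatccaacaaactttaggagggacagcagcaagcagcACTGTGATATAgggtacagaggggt
Cdh5: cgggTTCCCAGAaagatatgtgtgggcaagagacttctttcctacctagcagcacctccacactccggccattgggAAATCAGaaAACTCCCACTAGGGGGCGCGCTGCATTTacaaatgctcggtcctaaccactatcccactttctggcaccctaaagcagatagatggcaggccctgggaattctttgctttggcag
In all 6, at least 1 footprint of replicate 1 overlapped a footprint of replicate 2.

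The Mfsd2a peak lies in an intron, 5.58 kb inside the gene. Its strength was 2.70 in replicate 1 and 2.06 in replicate 2 (2.38 ± 0.457), above the gene's promoter peak in each library. By the mean of both libraries it was the strongest peak of the 10 windows among those at no other gene's start, while in replicate 2 alone the Cdh5 peak (2.10) and the Slc2a1 promoter peak were higher.

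The Cdh5 peak lies 1.99 kb past the gene's 3′ end, with a strength of 2.30 in replicate 1 and 2.10 in replicate 2 (2.20 ± 0.142). Inside Cdh5, an intronic peak 25.8 kb from the 5′ end was in the stricter list of replicate 1 (0.701) and in the broader lists of both. The strongest stricter peak of this window in 1 library alone, 0.891 in replicate 1, lies upstream of the gene, at -24.6 kb from its 5′ end.

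The Slc2a1 peak lies 29.9 kb past the 3′ end outside any protein-coding gene, with a strength of 2.23 in replicate 1 and 1.78 in replicate 2. A peak of 1.31 in an intron, 12.8 kb inside the gene, was in the stricter list of replicate 1 alone. It overlapped a broader peak of replicate 2, as did the other stricter peaks of this window found in replicate 1 alone.

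The Pecam1 peak lies 5.71 kb past the 3′ end, at 1.65 in replicate 1 and 1.43 in replicate 2 (1.54 ± 0.158). Pecam1 also held 3 intronic stricter peaks in both libraries. They lay 13.2, 72.4 and 92.4 kb from the 5′ end, with strengths of 0.682, 1.38 and 1.13 in replicate 1 and 0.685, 1.10 and 0.926 in replicate 2. Pecam1 was thus the member with most stricter intragenic peaks shared by both libraries, in the absence of a promoter peak.

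The Cldn5 peak had a strength of 1.46 in replicate 1 and 1.33 in replicate 2 (1.40 ± 0.0893). It lies 20.8 kb past the end of Cldn5 in an intron of Cdc45, a DNA replication gene, and was the only stricter peak of the window that was at no gene's start. Nothing in these data links it to Cldn5 beyond distance.

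The Flt1 peak, in an intron 141.9 kb from the 5′ end, had a strength of 1.41 in replicate 1 and 0.991 in replicate 2 (1.20 ± 0.298). A weaker one that overlaps an exon, 80.6 kb from the 5′ end, measured 0.796 and 0.509. The intragenic peaks at 0.663 in replicate 1 and at 0.398 and 0.509 in replicate 2 were each in the stricter list of 1 library and overlapped a broader peak of the other.

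At Tek, the whole 236 kb window held no peak of either list and no footprint in either library. A window with no peak in either library was found for 10.6% of all genes, whose windows differ in length and were not matched to that of Tek. The FDR table listed 6 short intervals there in replicate 1 and 3 in replicate 2, the lowest at 0.0296 and 0.0303. The longest stretch without an interval was 172.2 kb in replicate 1 and 211.3 kb in replicate 2. At Kdr the window held no stricter peak in replicate 1 and 2 in replicate 2, its promoter peak and 1 of 0.463 that lies upstream, at -9.60 kb from the 5′ end, where replicate 1 had a broader peak. Sox17 held 1 stricter peak in each library, the promoter peaks given above.

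**Figure D3:**
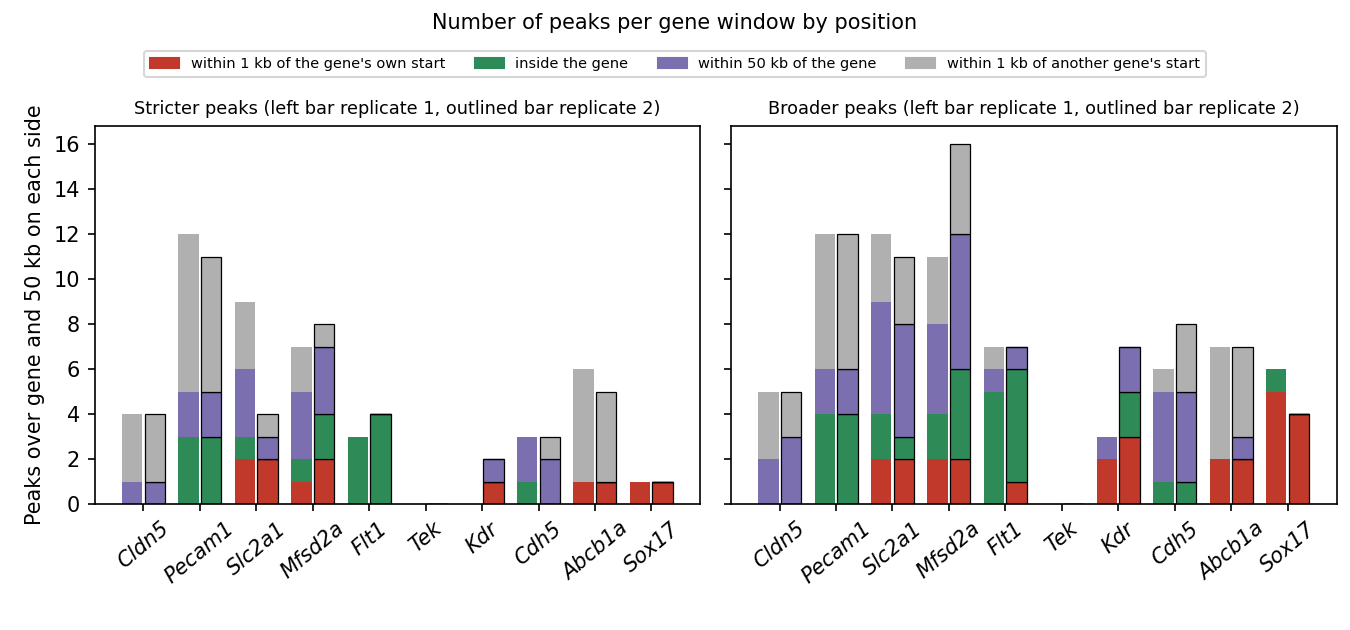
Number of stricter peaks (left panel) and broader peaks (right panel) in each gene's window, stacked by position, with replicate 1 as the left bar and replicate 2 as the outlined bar. Pecam1 has the most stricter peaks (12 and 11), most of them in grey at other genes' starts, and Tek has none in either list.

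Summed over the 10 windows there were 45 stricter peaks in replicate 1 and 42 in replicate 2 (43.5 ± 2.12). Of these, 5 and 7 lay within 1 kb of a start of the named genes, 9 and 9 inside the genes, 11 and 10 in the flanks, and 20 and 16 within 1 kb of a start of some other gene. The broader list held 69 and 77 peaks (73.0 ± 5.66) and the footprints numbered 164 and 192 (178.0 ± 19.8), of which 150 and 169 lay inside broader peaks. Per window, the median over the 10 genes was 3.75 stricter peaks against 4.0 over all genes, 7.0 broader peaks against 6.5, and 13.25 footprints against 18.0. Per 100 kb of window these were 2.51 against 2.86, 4.80 against 4.60, and 10.2 against 12.4.

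The strongest peaks in several windows belonged to neighbours. In the Pecam1 window the shared promoter of Ddx5, an RNA helicase, and Cep95 measured 5.81 in replicate 1 and 5.66 in replicate 2 (5.73 ± 0.108). In the Mfsd2a window the promoter of Mycl, a MYC family gene, measured 2.76 and 3.56 (3.16 ± 0.564). In the Slc2a1 window that of Zfp691 measured 3.95 and 2.07 (3.01 ± 1.33), a wide spread between libraries. In the Abcb1a window that of Rundc3b measured 2.67 and 1.53 (2.10 ± 0.810), and in the Cldn5 window that of Ufd1 and Cdc45 measured 1.91 and 1.84 (1.88 ± 0.0509). In the Cdh5 window Bean1 had a stricter promoter peak in replicate 2 alone, at 0.731. Inside the Flt1 and Tek windows no stricter peak lay at the start of another protein-coding gene, and Kdr and Sox17 have no other protein-coding start in their windows.

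Peak sharing between libraries was described over these windows. Of the stricter peaks, 32 of 45 in replicate 1 (71.1%) and 31 of 42 in replicate 2 (73.8%) overlapped one of the other library, against 76.5% and 78.4% of all stricter peaks. For the broader list the shares were 84.1% and 75.3% against 74.3% and 72.9%. The median strength of stricter window peaks was 1.31 in replicate 1 and 1.08 in replicate 2, beside 1.22 and 1.15 over all stricter peaks. Among the 32 shared peaks of replicate 1, 23 were stronger there and 9 were stronger in replicate 2, and over all shared stricter peaks 62.3% were stronger in replicate 1. The median ratio of replicate 2 to replicate 1 was 0.902, with a range from 0.525 to 1.5, and it was 0.931 over all of them.

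**Figure D4:**
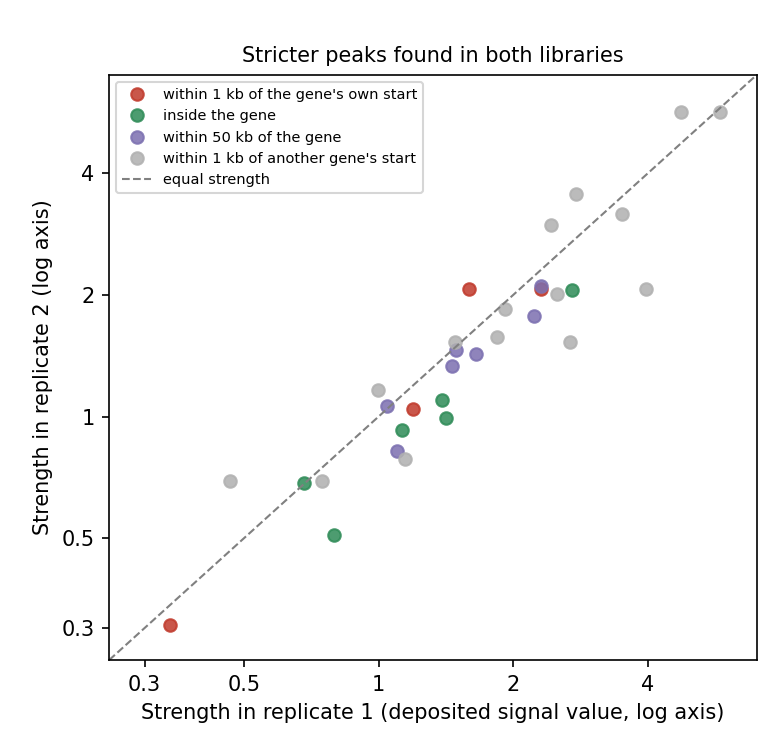
Strength in replicate 1 (horizontal axis) and replicate 2 (vertical axis), both on log axes, of the 32 stricter peaks of the windows that overlapped one of the other library, coloured by position. The dashed line marks equal strength, and 23 of the points lie below it.

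Short motifs were searched on both strands in the 200 bp about the midpoint of stricter peaks over 1 kb from every start, 20 of them in these windows in replicate 1 and 19 in replicate 2. A match describes letters only and does not show that a factor is bound. The composite FOX with ETS sequence AACAGGAA, a known feature of endothelial enhancers, was in 1 such peak of each library, the intronic Mfsd2a peak, and in 1.66% and 1.69% of all such peaks. The ETS sequence CAGGAAG was in 2 and 2 peaks (at Mfsd2a and Flt1), against 9.22% and 8.99%, and CCGGAAGT was in none, against 0.368% and 0.392%. The SOX sequence ACAAAG was in 3 and 2 peaks, against 14.8% and 14.7%, and ACAATG in 1 and 1, against 8.57% and 8.49%. The GATA sequence AGATAA was in 1 and 0 peaks, against 6.21% and 6.23%. The TCF and LEF sequence ATCAAAG was in 1 and 1, against 2.19% and 2.33%, and the FOX sequence TGTTTAC was in none, against 1.97% and 2.19%. The E-box CAGCTG was in 6 and 5 peaks, against 18.2% and 17.0%, and the NFI sequence TTGGCA in 4 and 5, against 16.1% and 14.9%. The AP-1 sequence TGANTCA was in 3 and 1, against 9.27% and 8.19%, and the SP and KLF sequence GGGCGG in 3 and 2, against 10.6% and 10.7%. These counts are too small to be set apart from the shares beside them.

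After the sequences had been read, a search was added for CTCF, a zinc finger protein that anchors chromatin loops. Its core CNAGNNGGC was in 9 of 20 peaks in replicate 1 and 5 of 19 in replicate 2, against 30.2% and 29.2% of all such peaks. A longer CTCF consensus of 12 letters was in 4 and 3, against 15.8% and 14.9%. The share with the core was above that of all such peaks in replicate 1 and below it in replicate 2. Sequences that had been read are among the counted peaks, so the counts, which are small, were not independent of the choice. In the printed sequences the core lay in a footprint at Pecam1, Slc2a1, Flt1 and Cdh5, which in replicate 1 spanned 27, 27, 29 and 28 bp. Overlapping footprints of 23, 25, 20 and 30 bp were listed there in replicate 2. The consensus was matched at Pecam1, Flt1 and Cdh5. The Cldn5 peak held no core, and its footprint of 38 bp in replicate 1 and 39 bp in replicate 2 touched the SOX sequence ACAAAG. Over all such peaks the median strength was 1.20 with the core and 0.967 without it in replicate 1, and 1.13 and 0.880 in replicate 2.

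In the 300 bp promoters, GGGCGG was present at 7 of the 10 genes against 43.0% of all genes. The GC content of these promoters ranged from 49.3% at Pecam1, which lacked it, to 70.7% at Flt1, which held it. Mfsd2a at 60.3% and Tek at 52.0% also lacked it, while Abcb1a at 50.3% held it. A relation of these matches to GC content was not tested. ACAAAG was present at Pecam1, Tek and Cdh5, against 17.8%, AACAGGAA at Cdh5, against 2.34%, and AGATAA at Tek, against 10.2%. These 3 genes had no promoter peak, so the matches at them lay in DNA that was not called accessible.

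The other genes of the same biology were described by lists. Of 30 other endothelial identity and transcription factor genes, 9 (30%) had a stricter promoter peak in both libraries and 19 had none in either. The strongest were Ets1 at 2.93 ± 0.104, Klf4 at 1.87 ± 0.395, Klf2 at 1.34 ± 0.135, Vwf at 1.29 ± 0.290, Epas1 at 1.21 ± 0.225 and Egfl7 at 1.12 ± 0.0079. Several of these, the ETS and KLF factors and Epas1 among them, are expressed in other brain cells too. Tie1, Eng, Emcn, Robo4 and Esam, named after their values were seen, had no promoter peak in either list.

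Of 26 other transporter and junction genes, 20 (76.9%) had a stricter promoter peak in both libraries, with a median strength of 2.26. The strongest were Bsg, a partner of lactate transporters, at 4.08 ± 0.151, the junction gene Cldn12 at 3.95 ± 0.403, the transferrin receptor gene Tfrc at 3.72 ± 0.0815, and Slc3a2 and Slc7a5, the 2 chains of a large amino acid transporter, at 3.65 ± 0.703 and 3.07 ± 0.0486. The insulin receptor gene Insr followed at 2.78 ± 0.00697. Most of these genes serve many cell types. The efflux pump gene Abcg2 (0.970 ± 0.102) and the thiamine transporter gene Slc19a3 (0.655 ± 0.0421) were lower, and 3 genes, Slco1a4, Slc22a8 and Slc38a5, had no promoter peak in either list of either library. These 5 genes were named after their values were seen.

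Of 17 VEGF, angiopoietin and Notch partners, 12 (70.6%) had a stricter promoter peak in both libraries. Notch4 measured 4.47 ± 0.511, the Notch target genes Hey2 and Hey1 4.43 ± 0.120 and 2.77 ± 0.715, Plcg1 3.15 ± 0.297, and the ligand genes Vegfa and Pgf 2.60 ± 0.202 and 2.07 ± 0.158. Vegfa thus had a stronger promoter peak than Kdr in each library and than Flt1 in replicate 2. In replicate 1 Flt1 had none. Of 17 genes of the Wnt pathway that induces the barrier, 13 (76.5%) had one, among them the ligand gene Wnt7a at 2.75 ± 0.299, the receptor gene Fzd4 at 2.02 ± 0.272, its partner Reck at 1.91 ± 0.0811, and Ctnnb1, Tcf7l1 and Axin2 at 2.96 ± 0.0637, 2.39 ± 0.165 and 2.12 ± 0.128.

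Markers of other cells in the tissue were read the same way. A stricter promoter peak in both libraries was present at 9 of 12 neuron genes (75.0%), 8 of 15 astrocyte genes (53.3%), 2 of 19 microglia genes (10.5%), 1 of 14 pericyte and smooth muscle genes (7.14%) and 1 of 7 genes of lymphatic or fenestrated endothelium (14.3%). With 4 of 10 (40%), the named endothelial genes lay between astrocyte and microglia genes in that order. Differences between lists were not tested. The median promoter strength over genes with one in both libraries was 0.748 for the named genes, 2.0 for neuron genes and 1.51 for astrocyte genes. It was 1.71 for microglia genes (2 genes). For pericyte and smooth muscle genes it was 0.496 and for lymphatic or fenestrated endothelium 0.632 (1 gene each). By strength the lists thus had another order. The medians over all genes with one, taken within each library, were 2.66 in replicate 1 and 2.32 in replicate 2, above those of all these lists. Against the 54.9% of all protein-coding genes, the share of neuron genes was higher and that of astrocyte genes about the same. Those of microglia, pericyte and lymphatic genes were lower. The named genes, at 4 of 10, are too few to be set apart from 54.9%. Their count was 5 at 2000 bp from a start or when replicate 2 was read by itself. Of the lists of the same biology, the transporter and junction (76.9%), VEGF, angiopoietin and Notch (70.6%) and Wnt (76.5%) genes lay above 54.9%. The other endothelial identity genes (30%) lay below it.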

How the data were processed

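Per the labels, DNase-seq was run on left cerebral cortex and the assembly is mm10. The labels and notes name no aligner or peak caller (not given in the sources used here). Per the deposited notes, peaks, FDR intervals and footprints were made from each library's alignments alone. The authors deposited, for each peak, a signal value (here strength, normalization not stated), whose distinct values below 5, the ones checked, were whole multiples (tolerance 0.02 of a step) of 0.00948 in replicate 1 and 0.00926 in replicate 2. The deposited FDR table holds false discovery rates (q-values) with 13091447 and 13798179 intervals, all under 0.05. The value deposited with each footprint is constant and was not used, so footprints are intervals only.

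Starts and genes came from GENCODE M21 and sequence from GRCm38.p6. All 126 chromosome and file pairs ended within the reference chromosomes, and 32851 of 32851 RefSeq promoter sequences were identical when read from the genome by coordinates. Peaks were assigned to windows by midpoint, and overlap meant at least 1 bp. Python 3.11.15, pandas 2.3.3, numpy 2.4.6 and pysam 0.24.0 were used, and the counting was tested on simulated intervals. Strength was not rescaled between libraries. The animals are hybrids, and the alleles were not separated. Of the stricter peaks, 4.36% and 5.95% overlapped another of the same list.

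The genes, lists and motifs were chosen with earlier results of these data known. Every member was named. From each list of genes of the same biology up to 6 genes with a stricter promoter peak in both libraries were named, by mean strength. The lists of markers of other cells, with that of lymphatic or fenestrated endothelium, were given as counts without named genes. For each window the strongest shared peak, the strongest one found in 1 library and the neighbour with the strongest promoter were taken. Alternatives changed the distance, overlap, window, list and library.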

Additional observations from a re-analysis of the deposited data

How the results depend on the processing

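No paired analysis was possible because there is 1 group. Of 41 alternatives to the main results, 25 kept a count within 1.5 times or a median within 1 SD of its value, and 16 did not. Those 25 include 122 footprints inside stricter peaks and 159.5 inside broader ones, 51.0 broader peaks with other genes' starts left out, and 36 stricter and 60 broader peaks with those within 200 bp joined. With only the peaks above the median strength, the genes with a promoter peak in both libraries fell from 4 to 1 (Slc2a1) in the stricter list and from 5 to 2 (Slc2a1 and Mfsd2a) in the broader list. At 2000 bp from a start Flt1 joined, giving 5 and 6. With 10 kb on each side the windows held 19.0 stricter peaks, 39.0 broader peaks and 72.5 footprints, the shared percentage was 63.33 and the median strength 0.962. Over the gene body they held 14.5, 26.0 and 52.5. Leaving out peaks at other genes' starts gave 25.5 stricter peaks and a median strength of 1.02, and dividing by each library's median gave a ratio of 1.01. That ratio has another unit than the strength, so its place among the 16 does not describe a change. The shared percentage of 72.46 was 66.67 when at least 0.5 of the peak had to overlap, 91.98 against the broader list and 69.5 with peaks within 200 bp joined. With either library left out, the stricter promoter count was 4 to 5, the broader 5 to 6, the stricter window peaks 42 to 45, the broader 69 to 77, the footprints 164 to 192 and the median strength 1.08 to 1.31. With 2 libraries, leaving 1 out always stays within 1 SD of their mean. For the median strength that outcome was therefore fixed in advance and shows no stability. Read depth is unknown, so a missing peak at a gene of a rare cell type says only that none was called at these lists' thresholds.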
